A study of Pimephales promelas with 139 samples.

Results

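The transcripts described here were the 200 whose abundance varied least from larva to larva among unexposed fathead minnow (Pimephales promelas), a small freshwater fish used in toxicity testing. They were chosen by measured values. Counts were divided by each library's total and scaled to a common total, the unit known as CPM, and transcripts were kept when their mean over the 29 control larvae was at least 10 CPM and they were not among the 200 most abundant. Of 37085 transcripts in the table, 23090 fell below that mean, and 13795 were eligible. The 200 eligible transcripts with the lowest ratio of standard deviation to mean (SD/mean) over the controls are called members, and the other 13595 eligible transcripts are called non-members. The controls' SD/mean is therefore a description of the choice, whereas the exposed larvae took no part in it.

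The series measured messenger RNA in 139 whole larvae, 1 library per larva. Larvae were exposed from 48 h post-hatch to ethinyl estradiol, a synthetic estrogen used in contraceptive pills, and were frozen 48 h later, at 96 h of age. The exposure was static for all groups, controls included. The groups were control at 0 ng/L (29 larvae), 0.12 ng/L (17), 1.2 ng/L (30), 2.5 ng/L (18), 5 ng/L (17) and 10 ng/L (28), spread over 3 experiments. Strain and sex are not given in the labels, nor is which larvae shared a vessel. Each larva was taken as 1 replicate, so the p-values rest on the spread between these larvae, which may be partly technical. Larvae that shared a vessel would not be independent, and p-values could then be too small and intervals too narrow.

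A reference transcript is one whose level is assumed to stay the same between samples, so that other transcripts can be measured against it. Reference genes are often taken from cell maintenance functions such as the cytoskeleton, protein synthesis and energy metabolism, and they are usually checked anew for each tissue, age and treatment. In a whole animal, the level of a transcript is a sum over all tissues, so a stable total can hold opposite changes in different organs. None of the transcript identifiers matched a name in the 64593-gene reference table used here, so the members are given by identifier, without names, roles or sequences, and no tissue marker was looked up. In whole-larva RNA, fewer cells of a type and less RNA per cell cannot be told apart.

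The smallest library held 8756290 reads, the median one 23453744 and the largest 32906788, and 9 libraries were under 0.5 times that median. In the 138 libraries used below, the members had a median of 1158 reads per larva, and the lowest single count of any member was 92. Replicate 7 of the 2.5 ng/L group stood apart from every other library. It had reads for 30768 transcripts, against 34800 in the next lowest library and a median of 36597. It was left out of every result below unless stated, which left 109 exposed larvae and 17 at 2.5 ng/L.

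The members lay in the middle and upper range of abundance. Their mean levels in controls ran from 12.3 to 432 CPM with a median of 50.7 CPM, whereas the median of non-members was 26.6 CPM. When eligible transcripts were split by mean level into 4 bins of equal size, 4, 24, 70 and 102 members fell in the bins from lowest to highest. The most abundant members were FMt010363, FMt007391 and FMt033070, and the least abundant were FMt007470, FMt007479 and FMt012048. Transcript lengths were not used here, so these levels do not rank transcripts by number of molecules.

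In the controls, which chose them, the members' SD/mean ran from 5.20% to 8.59%, with a median of 7.87%, against a median of 17.6% in non-members. The lowest 5 were FMt025790 at 5.20%, FMt036478 at 5.74%, FMt021571 at 5.86%, FMt040604 at 5.96% and FMt008353 at 6.03%. The last members admitted were FMt040014 at 8.58%, FMt029412 at 8.59% and FMt026434 at 8.59%. The first transcripts left out were FMt031711 at 8.60%, FMt016600 at 8.61% and FMt025031 at 8.61%, so no gap separated members from the transcripts just past the limit. In exposed larvae those 3 members had SD/mean of 12.7%, 9.94% and 10.997%, and the 3 transcripts just outside had 8.50%, 10.8% and 11.1%.

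The members also varied little in the larvae that had no part in the choice. Over the 109 exposed larvae their SD/mean ran from 6.83% to 15.6%, with quartiles of 9.14% and 11.01% and a median of 9.97%, whereas the median of non-members was 19.1%. All 200 members lay below the non-members' median, and 199 lay below the non-members' lower quartile of 15.1%. Only 1.32% of non-members had a lower SD/mean than the members' median. These are counts and medians over transcripts of the same larvae, given as a description without a test.

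**Figure D1:**
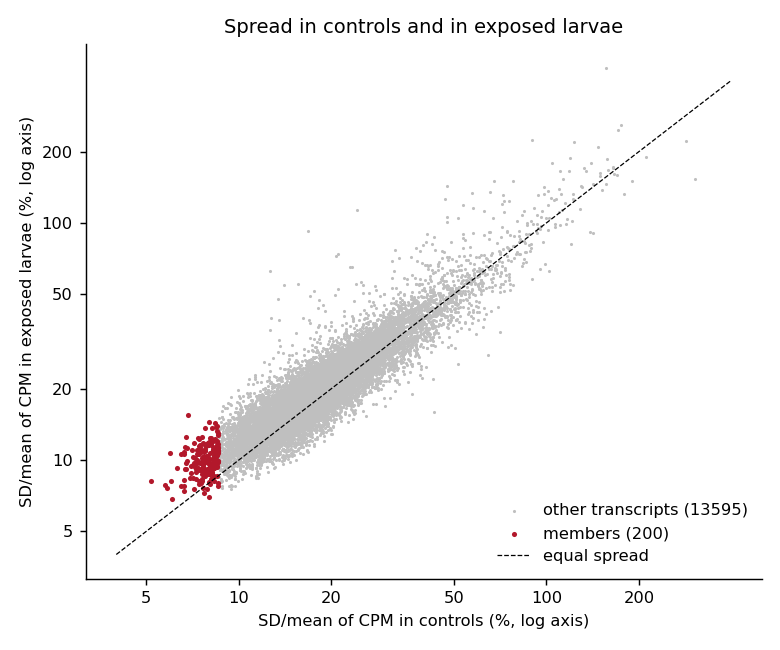
SD/mean of CPM in the 29 control larvae (horizontal axis, %, log scale) and in the 109 exposed larvae (vertical axis, %, log scale) for 13595 non-members in grey and 200 members in red; the dashed line marks equal spread. The members' left-hand position was set by the choice, and their exposed values run from 6.83% to 15.6%, mostly above the dashed line.

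The same measure was low at each concentration. From 0.12 to 10 ng/L the members' median SD/mean was 10.5%, 10.0%, 10.5%, 9.80% and 9.14%. The non-members' medians in the same order were 19.2%, 19.6%, 20.4%, 17.8% and 17.4%. At every concentration all 200 members were below the non-members' median, and the highest SD/mean of any member was 17.9% (in the 0.12 ng/L group). Within each bin of abundance the members' median over exposed larvae was also the lower one, at 13.7%, 11.2%, 10.3% and 9.39% from the lowest to the highest bin, against 21.4%, 19.3%, 17.8% and 17.7% in non-members.

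**Figure D2:**
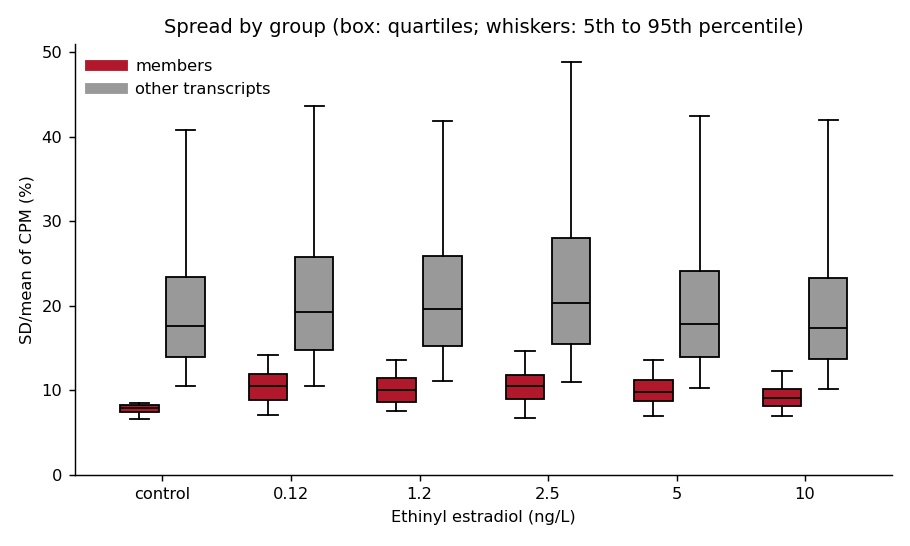
SD/mean of CPM (%) by ethinyl estradiol concentration (ng/L) for the 200 members (red) and 13595 non-members (grey); boxes span the quartiles with the median line, and whiskers reach the 5th and 95th percentiles over transcripts. Members' medians lie between 9.14% and 10.5% in the exposed groups and non-members' medians between 17.4% and 20.4%; the control boxes show the choice itself.

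A low place in controls went with a low, but not the same, place in exposed larvae. When the same rule was applied to the exposed larvae, 79 of the 200 members were among the 200 lowest there, 129 among the lowest 500, 173 among the lowest 1000 and 193 among the lowest 2000 of 13690 eligible transcripts. The median member stood at place 278.5 and the worst at place 3999. Applied to single concentrations, the rule placed between 39 members (at 0.12 ng/L) and 70 members (at 10 ng/L) among the lowest 200. The members found there at all 5 concentrations numbered 6, namely FMt000304, FMt007391, FMt010564, FMt029450, FMt029595 and FMt030156, named after their values were seen. Another 17 members were there at 4 concentrations, 14 at 3, 36 at 2, 53 at 1 and 74 at none, and 68 were among the lowest 1000 at all 5.

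Across the 200 members, SD/mean in controls and in exposed larvae had a Spearman correlation of 0.284, whereas across all 13795 eligible transcripts it was 0.889; the members span a narrow range by choice, and the transcripts share libraries and are not independent. For 192 members SD/mean was higher in exposed larvae than in controls, with a median ratio of 1.29, and the same was seen in 67.2% of non-members, with a median ratio of 1.08. Because low control values chose the members, this rise is a description only. Counting error, taken as the square root of the count, came to a median of 3.09% of the level in exposed larvae. Its share of the variance, taken for each member, had a median of 9.37%.

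FMt025790 had the lowest SD/mean in controls, where its level ran from 48.4 to 61.5 CPM with a median of 54.4. Its lowest, median and highest levels were 45.9, 51.9 and 63.8 CPM at 0.12 ng/L, 47.7, 56.3 and 64.6 at 1.2 ng/L, and 43.5, 56.2 and 67.8 at 2.5 ng/L. They were 49.7, 54.9 and 65.1 CPM at 5 ng/L and 48.2, 55.5 and 61.1 at 10 ng/L. Every exposed group overlapped the control range: of 109 exposed larvae, 6 lay above the highest control and 7 below the lowest. Its SD/mean over exposed larvae was 8.14%, place 27 there.

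FMt000304 had the lowest SD/mean over exposed larvae, 6.83%, after 6.09% in controls. Control levels ran from 137 to 178 CPM with a median of 159. Exposed group medians were 153, 160, 158, 162 and 163 CPM from 0.12 to 10 ng/L, and all 109 exposed values lay between 120 and 184 CPM. Only 3 exposed larvae were above the control range and 2 below it. FMt027212 was close behind at 7.01%, although it stood only at place 118 in controls (8.004%). Its controls ran from 57.8 to 87.7 CPM, its exposed larvae from 60.7 to 87.7 CPM, and a single exposed larva lay outside the control range. The other members of lowest spread in exposed larvae were FMt029595 (7.29%), FMt007391 (7.38%) and FMt014803 (7.57%). FMt007391 was at the same time one of the most abundant members, with 363 to 491 CPM in controls and 322 to 480 CPM in exposed larvae.

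The members that kept their stability least were FMt032495 (15.6%), FMt042358 (14.4%), FMt035931 (14.4%), FMt007470 (13.9%) and FMt000345 (13.8%). FMt032495 had been 22nd lowest in controls, with an SD/mean of 6.82% and levels of 22.4 to 30.5 CPM (median 27.03). Its lowest, median and highest levels were 17.04, 24.03 and 37.95 CPM at 0.12 ng/L, 14.96, 26.4 and 34.4 at 1.2 ng/L, and 17.5, 28.1 and 37.2 at 2.5 ng/L. They were 20.04, 26.3 and 35.7 CPM at 5 ng/L and 19.2, 24.3 and 32.1 at 10 ng/L. Larvae left the control range on both sides, 16 above it and 15 below, and did so in every exposed group. FMt042358 went mainly upward, with 29 exposed larvae above its control range of 27.7 to 38.9 CPM and 8 below. FMt007470, at a control median of 14.5 CPM, reached from 8.14 to 22.3 CPM in exposed larvae, the widest range of any member as a ratio.

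**Figure D3:**
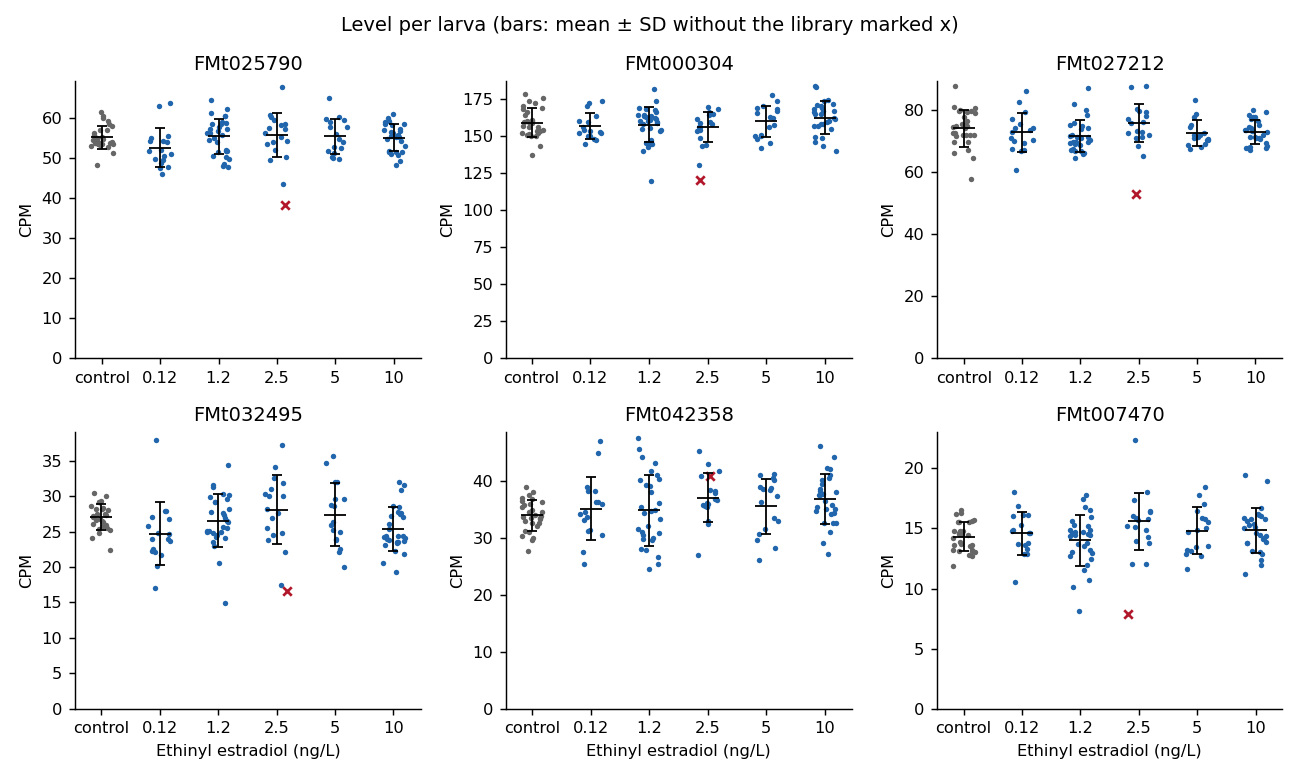
Level in CPM (vertical axis, from 0) of 6 members in every larva by ethinyl estradiol concentration (ng/L): the lowest in controls (FMt025790), the 2 lowest (FMt000304, FMt027212) and 3 of the 5 highest (FMt032495, FMt042358, FMt007470) by SD/mean over exposed larvae. Bars are mean ± SD without replicate 7 of the 2.5 ng/L group, marked x; the upper 3 keep narrow clouds and the lower 3 widen beyond the control range on both sides.

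The ratio of the highest to the lowest exposed larva gives the range rather than the SD. It ran from 1.42 to 2.74 over the members, with a median of 1.75, and exceeded 2-fold in 33 of 200. In controls it ran from 1.23 to 1.61, over fewer larvae. Replicate 53 of the 1.2 ng/L group weighed on this range, since it held the lowest exposed value of 54 members. Without it, 18 members exceeded 2-fold and FMt032495 had the widest range, 2.54-fold. The median SD/mean was 9.81% without it. Replicates 8 and 28 of the 0.12 ng/L group held the lowest value of 22 and 24 further members.

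No member passed the test against controls at any concentration. After Benjamini-Hochberg adjustment over 35330 transcripts in edgeR (quasi-likelihood F-test), 0 of 200 members passed an adjusted p of 0.05 in each of the 5 comparisons. From the lowest to the highest concentration the share of all transcripts called was 0%, 0.0113%, 0.0142%, 0.017% and 0.218%, so a count of 0 among 200 was near the background and is no result about the members. At an unadjusted p under 0.05, 9, 6, 25, 15 and 21 members passed from 0.12 to 10 ng/L, which is 4.5%, 3%, 12.5%, 7.5% and 10.5%. The shares over all transcripts were 4.72%, 3.39%, 8.16%, 7.50% and 6.62%. DESeq2 and limma-voom also called 0 members in each comparison. Their calls over all 35330 transcripts were at most 113 and 67 (both at 10 ng/L), so these zeros were near the background too.

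The members' changes were small and their errors narrow. The log2 change from control, fitted after library scaling by TMM (trimmed mean of M-values), over the 200 members ran from -0.11 to 0.13 at 0.12 ng/L, from -0.08 to 0.10 at 1.2 ng/L, from -0.09 to 0.17 at 2.5 ng/L, from -0.10 to 0.15 at 5 ng/L and from -0.09 to 0.12 at 10 ng/L. The 95% interval of every member lay within 1.25-fold of control, in either direction, at all 5 concentrations, which held for 63.1% of non-members. Within 1.1-fold the counts were 86 members (43%) and 351 non-members (2.58%). The members' standard errors had medians from 0.036 to 0.042 and the non-members' from 0.069 to 0.081. These errors use the controls that chose the members, and the 5 comparisons share those controls.

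**Figure D4:**
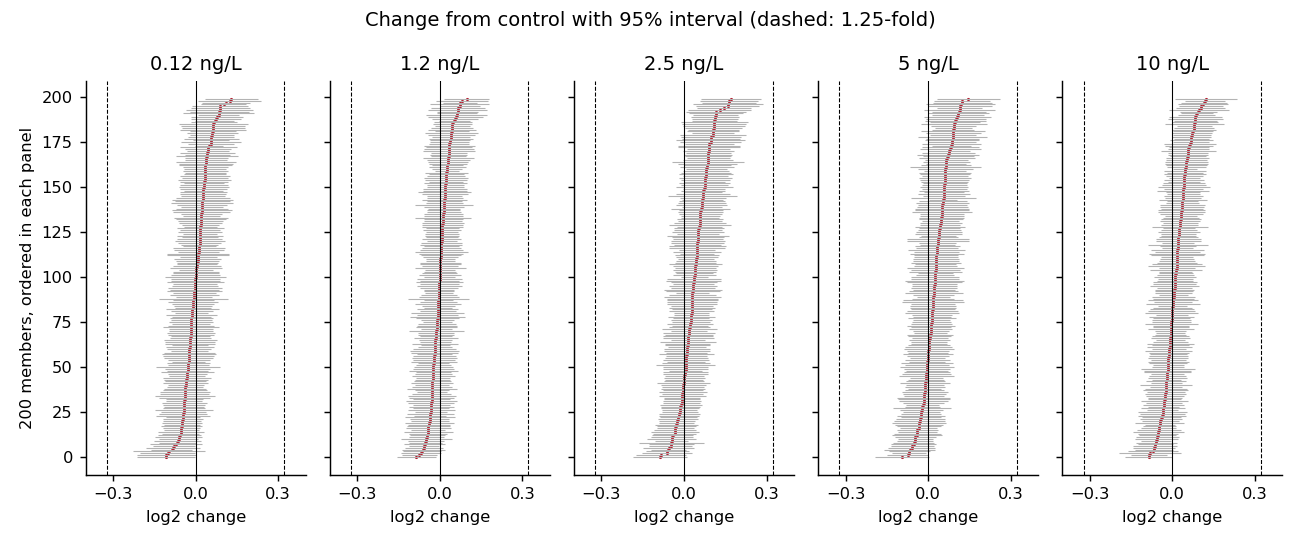
Log2 change from control (horizontal axis) with its 95% interval for each of the 200 members, ordered by change within each panel, at 0.12, 1.2, 2.5, 5 and 10 ng/L; dashed lines mark 1.25-fold. All intervals lie between the dashed lines, and the panels of 2.5 and 5 ng/L sit slightly to the right of 0.

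The members' median change was 0.04 at 2.5 ng/L, where 157 of 200 were above 0, and 0.03 at 5 ng/L, where 140 were; it was 0.01 at 10 ng/L. At 0.12 and 1.2 ng/L it was -0.000682 and -0.000671. The median over all tested transcripts stayed between -0.00174 and 0.00422, and that over non-members between -0.0110 and 0.0072. With RLE scaling (relative log expression) the medians at 2.5, 5 and 10 ng/L were 0.04, 0.03 and 0.01, with 158, 146 and 125 members above 0. Scaling by the members' own summed counts centres them near 0 by construction and is not read here. Without experiment 3 the median at 2.5 ng/L was 0.01, with 120 members above 0. On plain CPM, the scale that chose the members, no rise of like size was seen. There the members' median log2 ratio to the control mean averaged 5.8e-05 in the 2.5 ng/L group and -0.016 in the 5 ng/L group. It averaged -0.0027 in controls. Over all exposed larvae, 129 members had a lower plain CPM mean than in controls and 71 a higher one. The members' deviations were correlated, so counts of members above 0 are not independent.

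The members with the smallest p in each comparison are described next, and they were not always those with the largest change. FMt034777 ran from 26.4 to 36.8 CPM in controls (median 32.5) and from 29.6 to 44.3 CPM at 2.5 ng/L (median 35.8), with 7 of 17 larvae above the control range. Its log2 change was 0.16 (SE 0.05), with an edgeR adjusted p of 0.416. FMt028731 ran from 39.1 to 57.2 CPM in controls (median 48.0) and from 45.4 to 65.5 CPM at 10 ng/L (median 50.6), with 4 of 28 larvae above the control range. Its log2 change was 0.12 (SE 0.04), with an edgeR adjusted p of 0.232. Both exposed groups overlapped their controls.

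At the other concentrations the smallest p belonged to FMt033776, FMt036495 and FMt015059. FMt033776 had a median of 225 CPM in controls and 237 CPM at 0.12 ng/L, a log2 change of 0.13 (SE 0.05) with an edgeR adjusted p of 0.965. FMt036495 had 65.8 CPM in controls and 60.2 CPM at 1.2 ng/L, a log2 change of -0.08 (SE 0.03). FMt015059 had 80.1 CPM in controls and 83.8 CPM at 5 ng/L, a log2 change of 0.09 (SE 0.03) with an edgeR adjusted p of 0.599. None of these passed, and in each the exposed larvae overlapped the control range.

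Tests among exposed larvae alone do not use the control libraries that chose the members. No member passed edgeR's joint test of the 5 concentrations over 34918 transcripts, where 0.0487% of all transcripts were called. No member passed the test of a trend with log2 concentration either, where 0.0258% were called. At an unadjusted p under 0.05 there were 2 members in the joint test (1% of members, 2.71% of all transcripts) and 7 in the trend test (3.5% and 2.76%). DESeq2 and limma-voom called 0 members in both.

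Across the whole range from 0.12 to 10 ng/L, the fitted log2 change of the members lay between -0.06 and 0.10. The interval of all 200 stayed within 1.25-fold, against 82.9% of non-members. The median size of the fitted change was 0.03 in members and 0.04 in non-members, with median standard errors of 0.042 and 0.079. The smallest trend p was that of FMt042061, whose fitted change over the range was 0.10 (SE 0.04) at an unadjusted p of 0.0126 from edgeR, which did not pass the adjustment.

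The amount of variation among larvae was also compared between concentrations. Absolute deviations of log2 CPM were taken from the median of a larva's own group and experiment, scaled up for the number of larvae there. The median over the members of their mean deviation was 0.105, 0.104, 0.114, 0.0969 and 0.0994 from 0.12 to 10 ng/L. Over non-members the medians were 0.201, 0.207, 0.212, 0.182 and 0.189. In limma's test on these deviations 0 of 200 members and 0% of all transcripts passed an adjusted p of 0.05. At an unadjusted p under 0.05 there were 0 members and 440 of 34918 transcripts (1.26%). That share was itself far under the threshold of 0.05. The test thus called little anywhere in the table, and 0 calls cannot show equal spread between concentrations. The member with the smallest p was FMt028499, with mean absolute deviations of 0.144, 0.129, 0.202, 0.0831 and 0.124 from 0.12 to 10 ng/L and an unadjusted p of 0.0559 from limma. No other tool was run for this comparison.

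Experiments, unlike concentrations, did separate some members. In edgeR's joint test of the 3 experiments among exposed larvae, 18 of 200 members (9%) passed an adjusted p of 0.05, beside 8.39% of all transcripts and 11.3% of non-members, so the members' share was close to the background. DESeq2 called 22 members, beside 3448 of 34918 transcripts, and limma-voom 18, beside 2602. Without experiment 1 edgeR called 1 member, beside 461 of 34625 transcripts, so the count fell in the whole table too. Without experiment 2 it called 8 members, beside 2219 of 34784, and without experiment 3 it called 10, beside 1321 of 34782. On CPM scaled by TMM, 12 of the 18 were highest in experiment 1, 2 in experiment 2 and 4 in experiment 3, and 10 were lowest in experiment 2. On plain CPM the same counts were highest and 11 were lowest in experiment 2. Over all 200 members on plain CPM, 96 were highest in experiment 1, 18 in experiment 2 and 86 in experiment 3. The split is not given for called transcripts outside the members, so these counts are descriptions only.

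The differences between experiments were small in size. The ratio of the highest to the lowest experiment mean among exposed larvae had a median of 1.05 and a maximum of 1.12 over the members, and a median of 1.08 over non-members. The controls that chose the members came from the same 3 experiments, so the choice itself favoured small differences between experiments. FMt041082 had the smallest p, with an edgeR adjusted p of 0.000908. Its exposed larvae ran from 207 to 314 CPM in experiment 1 (median 258), from 198 to 270 CPM in experiment 2 (median 232) and from 169 to 304 CPM in experiment 3 (median 241). Its controls, which were not in the test, averaged 237, 235 and 245 CPM, so their highest experiment was not experiment 1.

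FMt025038 was next, with an edgeR adjusted p of 0.0014. Its exposed means were 32.3, 29.5 and 30.4 CPM in experiments 1, 2 and 3, and its control means of 32.4, 29.9 and 31.7 CPM had the same order. The larvae of all 3 experiments overlapped for both transcripts. Of the 18 members called, 8 had their highest control mean in the same experiment as their highest exposed mean, and 9 had the same lowest experiment. With only 3 experiments, some such matches arise without any link, and this agreement was not tested.

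Taken as a set, the members made up a similar mean share of the libraries in every group. Their summed counts were 1.45% ± 0.039 (SD, n = 29) of all counts in controls, 1.43% ± 0.066 (n = 17) at 0.12 ng/L, 1.43% ± 0.061 (n = 30) at 1.2 ng/L, 1.45% ± 0.050 (n = 17) at 2.5 ng/L, 1.44% ± 0.058 (n = 17) at 5 ng/L and 1.46% ± 0.044 (n = 28) at 10 ng/L. Single exposed larvae ran from 1.26% to 1.58%. With controls and exposed larvae together, the share averaged 1.45% in experiment 1, 1.42% in experiment 2 and 1.46% in experiment 3. No other set of transcripts was summed for comparison. The group means differed by less than the SD of single larvae within a group. That SD does not measure the error of a group mean, and the shares were not tested between groups.

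The members' median level in a larva, as a log2 ratio to the control mean, ran from -0.19 to 0.14 over exposed larvae, and 103 of 109 larvae lay within 1.1-fold of the control mean. A median exposed larva had 179 of its 200 member levels inside the control range. The choice favoured narrow control ranges, so counts inside and outside them, here and elsewhere, depend partly on the choice. They are given for members only, as a description. The lowest larva, replicate 53 of the 1.2 ng/L group, had 97 inside, 94 below and 9 above, with a median level of 87.4% of the control mean. It also had the lowest number of detected transcripts among the libraries used, and the part of this in its low member levels was not tested. Replicate 8 of the 0.12 ng/L group had 87 member levels below the control range and 13 above, with a median of 88.6%. At the other end, replicate 62 of the 5 ng/L group had 36 above and 0 below, with a median of 110.4%.

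The order of the larvae depended on the scaling. After TMM scaling the members' median in replicate 53 of the 1.2 ng/L group changed from -0.19 to 0.13, and in replicate 8 of the 0.12 ng/L group from -0.17 to 0.19. In replicate 28 of the 0.12 ng/L group it stayed at -0.14 under both. The spread of these medians over the 109 larvae was of like size on both scales, with SDs of 0.063 and 0.067.

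**Figure D5:**
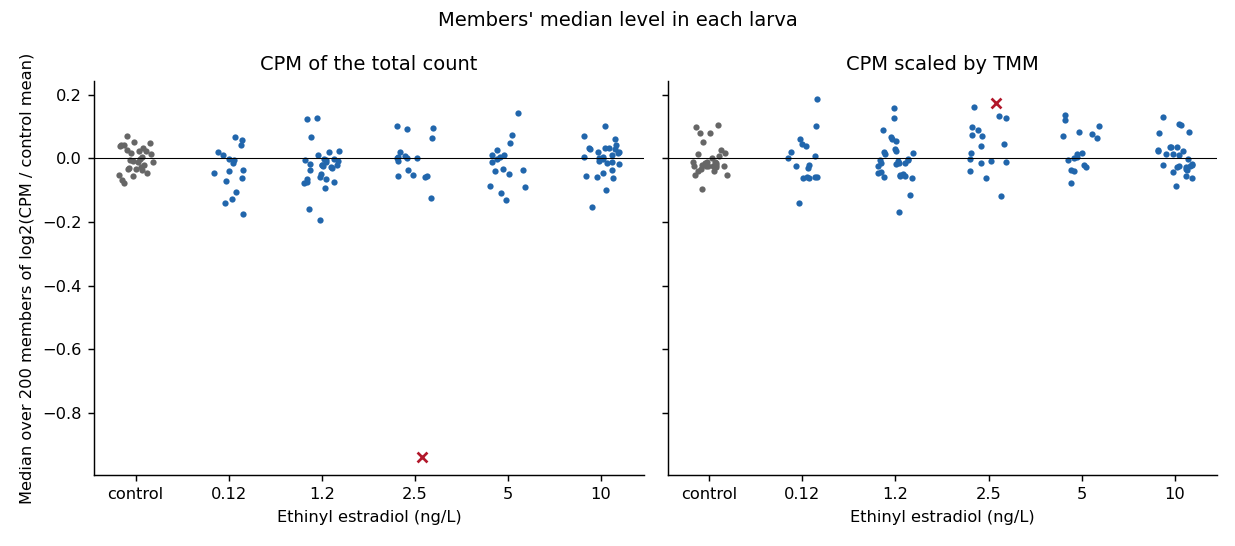
Median over the 200 members of log2(CPM / control mean) in each larva (points, vertical axis) by ethinyl estradiol concentration (ng/L), with CPM of the total count on the left and CPM scaled by TMM on the right; x marks replicate 7 of the 2.5 ng/L group. Exposed larvae lie between -0.19 and 0.14 on the left and between -0.17 and 0.19 on the right, whereas the marked larva lies at -0.94 on the left and 0.17 on the right.

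On plain CPM the members stood lower in the larva left out. In replicate 7 of the 2.5 ng/L group the members made up 0.834% of counts. They stood at a median of 52.2% of the control mean, with quartiles of 39.2% and 69.6%, on plain CPM. On that scale 184 of the 200 members were below the control range, 12 inside and 4 above it, and 161 were lower than in any other library. FMt025790 stood at 38.4 CPM there and FMt032495 at 16.6 CPM, whereas FMt042358, at 40.8 CPM, was above its control range. The direction depended on the scaling. The members' median log2 ratio to the control mean in this larva was -0.94 on plain CPM and 0.17 after TMM scaling. With this library kept, 9 members passed at 2.5 ng/L in edgeR's test, all of them upward after TMM scaling, by 0.16 to 0.30 on the log2 scale, beside 951 of 35340 transcripts (2.69%).

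Deviations of the members were on the whole positively correlated. After removing the mean of each group and experiment, the median Pearson correlation between pairs of members over the 109 exposed larvae was 0.18 on plain and 0.18 on TMM-scaled log2(CPM + 1), against 0.057 and 0.0091 between non-members. Of 19900 pairs of members, 1880 exceeded 0.5 after TMM scaling. The first principal axis held 26.2% of the members' variance, with 178 members on one side and 22 on the other. All pairs share the same libraries, depth and scaling, so these correlations are descriptions. Non-members were not matched to members for abundance: their median level in controls was 26.6 CPM, against 50.7 CPM in members. The part of abundance in the difference between these correlations was not tested.

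The closest pair, named after its values were seen, was FMt033434 and FMt043662, with a Pearson correlation of 0.88 on TMM-scaled values and a Spearman correlation of 0.84 over the 109 larvae, and 0.87 without the 2 larvae farthest from the median of FMt033434. On plain CPM the highest correlation of any pair was 0.81. On TMM-scaled values FMt014803 also followed FMt043662 (0.82), and FMt012884 followed FMt029136 (0.83) and FMt047420 (0.81). The most opposed pair was FMt014803 and FMt030393 (-0.66). There were 2 pairs of members with adjacent identifiers, FMt014803 with FMt014804 (0.30) and FMt021171 with FMt021172 (0.17).

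At 10 ng/L against control, scaling libraries by the members in place of TMM kept most calls in the rest of the table. There edgeR called 77 of 35330 transcripts with TMM and 91 with scaling by the members' summed counts, and 72 were called under both. The overlap was taken for this comparison only. Calls over all transcripts went from 6 to 9 at 5 ng/L and from 2928 to 3338 between experiments among exposed larvae. No member was in either set at 10 ng/L. With TMM 0.218% of all transcripts were called, so this is no result about the members. Scaling by the members also centres them near 0 by construction.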

How the data were processed

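Messenger RNA libraries were made from 250 ng RNA of single whole larvae with a Lexogen SENSE V2 kit, per the labels' protocols. The authors deposited raw read counts per transcript, obtained by mapping to known fathead minnow transcripts. No source used here names the aligner, and bcl2fastq 2.19.1, limma 3.40.6 and edgeR 3.26.8 are listed in the submitters' processing notes. A row without an identifier (0 to 13 reads per library) was dropped, and all columns mapped to a sample.

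Members were taken by the stated rule on plain CPM. The members, lists and tests were chosen with earlier results of these data known. Differences were tested with edgeR 4.0.16 (TMM, filterByExpr, robust quasi-likelihood F-test, experiment as covariate; group as covariate for the test of experiments) on the whole table, two-sided, with Benjamini-Hochberg adjustment over all transcripts and a threshold of 0.05. Intervals are the log2 change ± a t quantile times its standard error. Spread was tested with limma 3.58.1 on absolute deviations of log2 CPM (prior count 2). Alternatives included DESeq2 1.42.0, limma-voom, scaling by relative log expression (RLE) or by the members, other filters, no covariate, a replicate block, and leaving out shallow libraries or each experiment. The procedures were also run on simulated data with planted level changes of 1.25-fold or more and with a planted change of spread. The outcome is not given here, and every member's fitted change of level was smaller than those planted.

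Transcripts are named as the 5 of lowest SD/mean in controls, the 3 on each side of the limit, the 5 lowest and 5 highest in exposed larvae, the 3 most and 3 least abundant, and in each test the member of smallest p or, between experiments, the 2 of smallest p; others are marked as chosen after their values were seen. A planned list of common reference genes was not used, since no identifier matched a name. No 2 libraries of a group and experiment were copies: counts differed by at least 9.53 times the sampling variance in all 503 pairs compared. Over 279 pairs of larvae with same-numbered titles the median correlation of deviations was -0.024, and 83 exceeded 0.1. Over 2329 other pairs the median was -0.011. What the title number marks is not given in the labels, and these values cannot show whether larvae were paired.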

Additional observations from a re-analysis of the deposited data

How the results depend on the processing

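The count of members called stayed at 0 for each concentration against control, the joint test, the trend and the spread under every alternative run but 1. The exception was 2.5 ng/L with replicate 7 of that group kept, where it was 9, beside 951 of 35340 transcripts. In the other alternatives of these tests at most 113 of 35330 transcripts were called (DESeq2, 10 ng/L). A count of 0 among 200 was therefore near the background and is no result about the members. With the title number as a replicate block, 0 members were called in the tests of concentration, trend and spread, where none was called without it. The block was not run for the test of experiments, the only one with members called in the main fit. Between experiments, 1 member was called without experiment 1, 8 without experiment 2 and 10 without experiment 3, against 18; calls over all transcripts were 461, 2219 and 1321, against 2928. Keeping replicate 7 of the 2.5 ng/L group raised the members' median SD/mean over exposed larvae from 9.97% to 11.2%; the other 7 alternatives gave 9.76% to 10.1%, including 9.81% without replicate 53 of the 1.2 ng/L group, an alternative added after the data were seen. The number of members among the 200 lowest in exposed larvae was 57 to 83, against 79. Which transcripts are members depended more on the choices: 101 of the 200 were shared when CPM was scaled by TMM, 64 with median absolute deviation over median, 105 when the minimum mean was 50 CPM, and 105 to 139 when an experiment's controls were left out (114 without experiment 1, 105 without experiment 3). The lists so chosen had median SD/mean of 9.97% to 11.2% in exposed larvae. The cause of these differences was not tested. Calls over all transcripts at 10 ng/L, 77 in edgeR, were 113 in DESeq2, 44 without shallow libraries, 27 without a covariate, and 18, 31 and 40 without experiment 1, 2 and 3. In the libraries used, the lowest count of any member was 92 reads. The part of depth in the spread of the least abundant members was not tested. Intervals cover only the spread between these larvae.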
